A study of Rattus norvegicus with 11 samples.

Results

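The effect of E2F1 common to all growth conditions was measured in REF52, an established line of fibroblasts from rat embryos, by setting all 6 arrays of cells infected with an E2F1 adenovirus against all 5 arrays of cells infected with the control virus (CMV), which together are the 11 arrays of the series. Every culture had been grown in 10% serum and held in 0.25% serum for 48 hours before infection. After infection the cells stayed in deprivation medium (1 control array, 2 E2F1 arrays), received serum (2 and 2) or received serum with LY294002, an inhibitor of phosphoinositide 3-kinase (2 and 2). The sources used here do not give the insert of the control virus, the virus dose or the time of harvest. Nor do they tell whether replicate arrays stand for separate cultures, so each p-value reflects spread among arrays that may be technical. No probe set carried E2f1 as its only gene symbol, so the level of the introduced gene was not analysed here.

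E2F1 is a transcription factor that binds DNA with a DP partner and is held in check by the retinoblastoma protein. Once released, it activates genes needed to enter S phase, and it can also sensitise cells to death. Quiescent fibroblasts, by contrast, invest in matrix, contractile and adhesion genes, which tend to fall when cells enter the cycle. The best known cell cycle, replication, mitosis and repair genes formed a list of their own here (192 measured genes, of which 140 rose, with a median log2 change of 1.22), and the account below is of the other genes.

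Array signals were compared as log2(signal + 16), and all changes are E2F1 minus control virus with medium as a covariate, ± the standard error of the limma fit. A probe set was called when its limma p-value, adjusted by Benjamini-Hochberg over 15866 probe sets, was under 0.05. Of all probe sets 2624 (16.5%) were called, 1442 (9.09%) higher and 1182 (7.45%) lower with E2F1, and 520 and 172 of these changed at least 2-fold. Of all probe sets tested, 1298 (8.18%) were called higher with every E2F1 array above every control array of its own medium in all 3 media, and 1012 (6.38%) were called lower with every E2F1 array below. These are 90.0% of the higher and 85.6% of the lower calls, shares that follow in part from calling on the same arrays. Called or not, 1587 probe sets lay above and 1423 below the controls in this way. The number of arrays limits the precision, and the single deprived control array weighs most: without it, 1686 probe sets were called, 995 higher and 691 lower. Counts of list members given below without this array stand beside these smaller totals. Taking each gene by its brightest probe set, 1117 of 10411 genes (10.7%) rose and 843 (8.1%) fell, and 977 and 842 of these lay outside the cell cycle list. The median change over all genes was -0.03. In RNA from whole cultures, a change in the share of cells that express a gene and a change in RNA per cell cannot be told apart.

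The 14 genes outside the cell cycle list that rose most on the same side of the controls in every medium have varied functions, among them folate turnover, chromatin, the nuclear envelope, lipid and ion handling and signalling. Ggh, the hydrolase that trims glutamates from stored folates, had signals of 548 on the deprived control array, 919 and 1076 on the control arrays in serum, and 741 and 685 with LY294002. On E2F1 arrays it had 6287 and 6766 in deprivation, 5820 and 4057 in serum, and 6101 and 10678 with LY294002. Every E2F1 array exceeded every control array, and Ggh rose 8.21-fold (log2 change 3.04 ± 0.25, adjusted p = 0.000139, limma).

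Lmnb2, which encodes lamin B2 of the nuclear lamina, had control signals of 389 in deprivation, 381 and 746 in serum, and 400 and 348 with LY294002. The E2F1 signals were 2952 and 3153, 3492 and 3229, and 4114 and 3967 in the same order of media. The E2F1 arrays lay close together in all media, and the rise was 7.89-fold (2.98 ± 0.19, adjusted p = 5.5e-05, limma). Atad2, a bromodomain ATPase of chromatin, spanned 133 to 280 on the 5 control arrays and 1175 to 2346 on the 6 E2F1 arrays (8.03-fold, adjusted p = 6.24e-05, limma).

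The same pattern of non-overlapping groups held for Tlcd1, a membrane lipid regulator, which had 95.2 to 246 on control arrays and 733 to 3381 on E2F1 arrays (3.11 ± 0.32). Sh3bp1, a GTPase activator for Rac, moved from 47.9 to 111 up to 514 to 610 (2.87 ± 0.17), and the kinase gene Sbk1 from a median of 67.4 to one of 767 (8.03-fold). No fold is given for genes of this group with 1 or more control arrays under 2 times the offset of 16. They were Psmb9, described below, Mxd3, a Max-binding repressor of transcription (3.06 ± 0.38), Cnnm4, a magnesium transporter (3.03 ± 0.34), Dpf1, a subunit of BAF chromatin remodellers best known from neurons (2.95 ± 0.14), Phf19 and Cbx2 of the Polycomb system (2.90 ± 0.33 and 2.84 ± 0.40), and Nup107, a scaffold subunit of the nuclear pore (2.73 ± 0.36). Mxd4, a relative of Mxd3 picked after its value was seen, moved the other way, from 532 to 1013 on control arrays down to 215 to 406 on E2F1 arrays (-1.25 ± 0.22, adjusted p = 0.00395, limma).

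Among the genes that fell most on the same side in every medium were receptors and secreted proteins of fibroblasts. Vldlr, a lipoprotein receptor that also binds reelin, had control signals of 4132 in deprivation, 2927 and 2905 in serum, and 2821 and 1968 with LY294002. With E2F1 it had 1173 and 1260, 724 and 1574, and 528 and 471. No E2F1 array reached a control array, and Vldlr fell 3.49-fold (-1.80 ± 0.22, adjusted p = 0.000624, limma). Cd59b, an inhibitor of the complement membrane attack complex, spanned 1101 to 1521 on control arrays and 301 to 588 on E2F1 arrays (-1.52 ± 0.17, adjusted p = 0.000433, limma). Mmp11, the matrix protease stromelysin 3, spanned 240 to 662 and 70.8 to 233 (-1.48 ± 0.20).

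Separation within each medium was required of these 14 genes by the rule that chose them. Over all arrays, Vldlr, Cd59b, Mmp11, Smoc1 and Klf9 did not overlap between the viruses, whereas the other 9 did. The share of all probe sets without such overlap is not given here, so these counts describe the 14 genes only. Smoc1, a secreted calcium-binding protein that opposes BMP signalling, had control signals of 3883 in deprivation and 801 to 2422 in serum with or without LY294002, against 479 to 778 over all E2F1 arrays (-1.61 ± 0.28). Nkain4, a partner of the sodium pump, had 975 to 2004 against 93.4 to 1099 (-2.11 ± 0.42). The remainder comprised the sphingosine-1-phosphate receptor S1pr3 (-2.25 ± 0.46), the platelet-derived growth factor receptor Pdgfrb (-1.93 ± 0.32), the actin-associated Synpo (-1.77 ± 0.34), the secreted C1qtnf5 (-1.69 ± 0.26), the calcium exchanger Slc24a3 (-1.45 ± 0.24), the growth factor Tgfb3 (-1.55 ± 0.33), the Krueppel-like factor Klf9 (-2.01 ± 0.19), the mitochondrial gluconeogenic enzyme Pck2 (-1.68 ± 0.34) and the chemokine scavenger Ackr3 (-1.44 ± 0.30). For 10 of the 14 genes that fell, the second control array with LY294002 was the lowest of the 5 control arrays, and for 11 the deprived control array was the highest. Klf9 and Pck2 are given by the brightest of their called probe sets: the brightest probe set of each was measured at -0.65 ± 0.24 for Klf9 (adjusted p = 0.0906) and -0.33 ± 0.25 for Pck2 (adjusted p = 0.432) and did not pass the limma test.

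**Figure D1:**
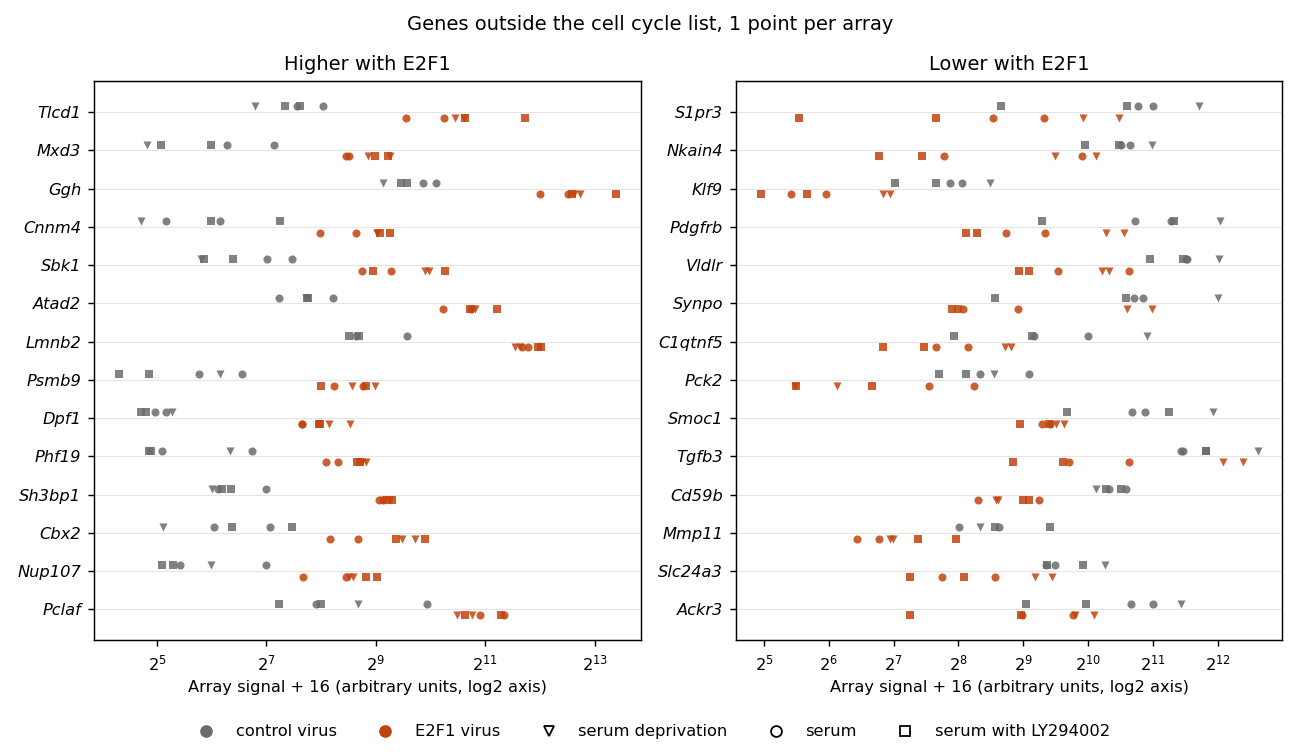
Array signal plus 16 (horizontal, log2 axis) of the 14 genes outside the cell cycle list with the largest rise (left) and the largest fall (right), with 1 point for each of the 5 control virus (grey) and 6 E2F1 arrays (orange), shaped by medium. Ggh reaches 4057 to 10678 with E2F1 against 548 to 1076 in controls. Separation within each medium was required by the rule that chose these genes, and on the right 9 of the 14 genes overlap over all media.

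Of the 66 measured chromatin genes outside the cell cycle list (histone chaperones, DNA and histone methylation, remodelling), 30 rose and 2 fell, with a median log2 change of 0.43. Several subunits of Polycomb complexes, which keep genes silent through histone marks, were among those called. The methyltransferase Ezh2 of Polycomb repressive complex 2 went from 280 to 546 on control arrays up to 781 to 1454 on E2F1 arrays (1.49 ± 0.15), and its partners Eed (1.26 ± 0.14) and Suz12 (1.03 ± 0.15) rose with it. Pcgf5, a subunit of complex 1 that was on no list, went from 195 to 542 up to 879 to 3737 (2.43 ± 0.30), and Cbx7 and Phc1 rose too (1.85 ± 0.31 and 0.84 ± 0.15). The ubiquitin ligase subunit Rnf2 (-0.16 ± 0.15, adjusted p = 0.532) and Ezh1, the relative of Ezh2 typical of resting cells (-0.65 ± 0.21, adjusted p = 0.0587), did not pass the limma test. These Polycomb genes, other than Cbx2 and Phf19, were picked after their values were seen. Dnmt1, which copies DNA methylation after replication, rose (1.34 ± 0.16), as did the deacetylase Hdac1 (1.17 ± 0.15). The 2 that fell were Kdm5b, a histone demethylase, with 577 to 766 on control arrays and 238 to 392 on E2F1 arrays (-1.20 ± 0.15), and the deacetylase Hdac3 (-0.45 ± 0.13), whose call was kept in 9 of 23 alternative settings.

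Genes of the nuclear envelope and of transport through it rose more often than any other list outside the cell cycle that is described here. Of 56 measured, 30 rose and 1 fell, with a median of 0.43. The pore subunits Nup107 and Nup133, which sit in the same scaffold, changed by 2.73 ± 0.36 and 1.79 ± 0.17, and Nup133 had 79.0 to 133 on control arrays against 310 to 551 on E2F1 arrays. Both B-type lamins rose, Lmnb2 as above and Lmnb1, which is counted with the cell cycle list, from 262 to 866 up to 1646 to 2477 (2.16 ± 0.24), whereas A-type lamin, Lmna, was measured at -0.27 ± 0.21 (adjusted p = 0.439, limma). The Ran cycle, which gives transport its direction, was represented by Rangap1 (1.46 ± 0.15) and Ran itself (0.63 ± 0.11), and cargo carriers by Ipo5 (1.02 ± 0.13). The gene that fell was another importin, Ipo4, with 1054 to 1511 against 526 to 1037 (-0.78 ± 0.12, adjusted p = 0.00231, limma).

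RNA processing genes changed by less per gene but in number. Of 93 splicing factors and hnRNP genes, 32 rose and 1 fell, with a median of 0.31, and without the deprived control array 19 rose. Lsm2, a ring protein of the U6 snRNP, went from 280 to 483 up to 1027 to 1551 (1.71 ± 0.15, adjusted p = 0.00017, limma), and Thoc7 of the mRNA export complex THO from 2002 to 2513 up to 4701 to 9509 (1.49 ± 0.15). Rbmx, a nuclear RNA-binding protein, changed by 2.11 ± 0.48 (adjusted p = 0.0148, limma). Thoc2, another THO subunit, was the one called lower (-0.60 ± 0.18), and its call was kept in 6 of the 22 alternative settings that tested it.

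Genes of ribosome biogenesis were called in number, whereas those of cytosolic ribosomal proteins were not. Of 61 genes for nucleolar proteins and rRNA processing, 22 rose and 0 fell, whereas of 44 cytosolic ribosomal protein genes 0 were called by limma in either direction, 1 had an unadjusted p under 0.05, and 39 lay below 0 (median -0.16). By medium the ribosomal protein median was -0.32 in deprivation, with its single control array, -0.11 in serum and -0.02 with LY294002. The median of all genes was -0.12, 0.05 and -0.03 in the same order. The biogenesis count was 13 without the first control array in serum or the first deprived E2F1 array. It was 14 without the deprived control array, the first control array with LY294002, the first serum E2F1 array or the second E2F1 array with LY294002. Gar1, a subunit of the H/ACA particles that modify rRNA, went from 96.8 to 265 up to 653 to 966 (2.09 ± 0.18), Nop56 of the C/D particles changed by 1.33 ± 0.14 and the exosome subunit Exosc7 by 1.21 ± 0.14. Mitochondrial ribosomal proteins included 11 of 71 that rose (15.5%, against 10.7% of all genes), among them Mrpl42 (1.12 ± 0.13). In this list 1 fell (1.41%, against 8.1%), Mrpl23 (-0.66 ± 0.13). Of 79 respiratory chain and ATP synthase subunits 5 rose, among them Atp5if1, the inhibitory factor of the ATP synthase (0.74 ± 0.18), and 4 fell, among them Ndufb4 (-0.68 ± 0.13), shares below those over all genes. Without the deprived control array 5 mitochondrial ribosomal and 0 respiratory genes were called higher, and without the second E2F1 array with LY294002 7 mitochondrial ribosomal genes. Without the first serum E2F1 array 3 respiratory genes rose. The count of 4 that fell was 5 without the second control array with LY294002, 3 without the first E2F1 array with LY294002, and 1 or 2 without any other single array.

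Among 44 genes of nucleotide synthesis outside the cell cycle list, 13 rose (29.5%, against 10.7% of all genes) and 2 fell (4.55%, against 8.1%). Without the deprived control array or without the first control array with LY294002 8 rose. Dut and Dctpp1, which clear the pool of unwanted deoxynucleotides, changed by 1.86 ± 0.22 and 1.63 ± 0.19. Tyms, which makes thymidylate and is counted with the cell cycle list, went from 64.1 to 156 up to 248 to 500 (1.75 ± 0.22). The adenylate kinase Ak4 of mitochondria rose as well (1.66 ± 0.21), although another of its probe sets had the other sign without being called. The purine salvage enzyme Pnp fell (-0.44 ± 0.10), and so did Dguok (-0.57 ± 0.17), whose call was kept in 9 of 23 alternative settings. Of 73 chaperone genes 16 rose (21.9%, against 10.7% of all genes) and 5 fell (6.85%, against 8.1%), and 9 rose without the deprived control array. The count that fell was 2 without the first serum E2F1 array, and 3 without the deprived control array, either serum control array or the second deprived E2F1 array. Dnajc21, a J-protein of ribosome maturation, went from 67.3 to 120 up to 265 to 636 (2.14 ± 0.21), while the stress proteins Bag3 and Hspb1 fell (-0.77 ± 0.10 and -0.73 ± 0.14).

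**Figure D2:**
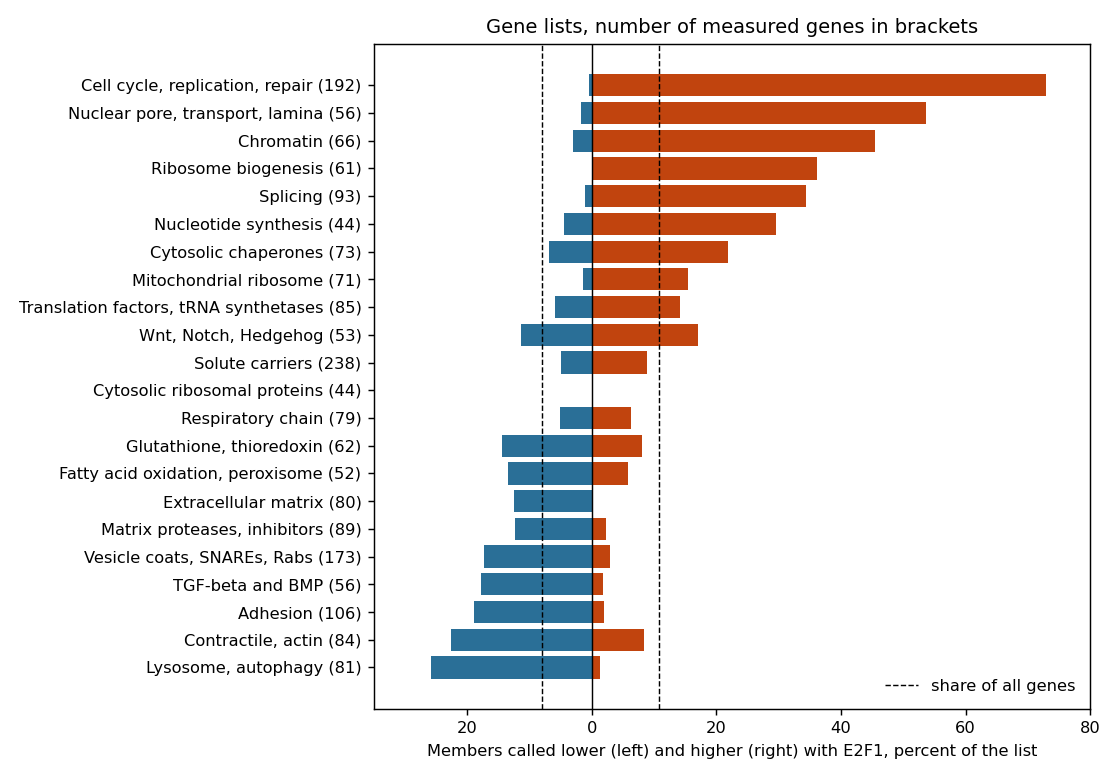
Share of the measured members of each gene list called higher (orange, right) or lower (blue, left) with E2F1, in percent of the list, with the number of members in brackets; dashed lines mark the share of all genes, 10.7% higher and 8.1% lower. Nuclear transport and chromatin genes stand at 53.6% and 45.5% higher, and lysosome and contractile genes at 25.9% and 22.6% lower.

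In antigen processing 5 of 37 genes rose and 2 fell, near the shares over all genes. Of those that rose, 2 were subunits of the proteasome system: Psmb9, a catalytic subunit of the immunoproteasome (2.97 ± 0.30), and Psme1, its activator (0.86 ± 0.14). The peptide transporter subunits Tap1 and Tap2 changed by 1.89 ± 0.27 and 1.17 ± 0.28, and the transcription factor Irf1 by 0.98 ± 0.12. The Tap1 signal was 22.6 to 143 on control arrays and 209 to 348 on E2F1 arrays. The other immunoproteasome subunits Psmb8 (-0.25 ± 0.28, adjusted p = 0.627) and Psmb10 (-0.08 ± 0.20, adjusted p = 0.838) did not pass the limma test, nor did B2m, the class I light chain (0.22 ± 0.17, adjusted p = 0.452). The 2 that fell were Fcgrt, the neonatal Fc receptor (-0.95 ± 0.17), and RT1-Db1, a class II chain (-0.67 ± 0.18), whose call was kept in 11 of the 22 alternative settings that tested it.

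Of 62 genes of glutathione, thioredoxin and related defences, 5 rose (8.06%, against 10.7% of all genes) and 9 fell (14.5%, against 8.1%). Without the first control array in serum 5 fell. Those that rose include genes that make and recycle glutathione. Gclm and Gclc, the subunits of the enzyme that limits glutathione synthesis, went from 115 to 212 up to 493 to 2074 (2.29 ± 0.31) and from 522 to 1311 up to 1449 to 4688 (1.63 ± 0.19), followed by Srxn1 (1.45 ± 0.35), Gsr (1.19 ± 0.16) and Txn1 (0.76 ± 0.14). The largest fall was that of the thioredoxin reductase gene Txnrd3 (-1.73 ± 0.41, adjusted p = 0.0172, limma), although its arrays overlapped in 1 or more media. Others that fell included the glutathione transferases Mgst1 (-1.33 ± 0.17) and Gstm1 (-0.75 ± 0.14). The heme oxygenase Hmox1 went from 1037 to 2325 down to 566 to 1152 (-1.02 ± 0.25, adjusted p = 0.0189, limma).

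Solute carriers were called less often than all genes: of 238, 21 rose (8.82%, against 10.7%) and 12 fell (5.04%, against 8.1%). Those that rose most move amino acids and mitochondrial metabolites. Slc38a1, a glutamine transporter, went from 189 to 240 up to 543 to 2217 (2.07 ± 0.31), and the cationic amino acid transporter Slc7a1 from 589 to 898 up to 1323 to 2782 (1.48 ± 0.17). The mitochondrial carriers Slc25a10, for dicarboxylates, and Slc25a13, for aspartate and glutamate, changed by 1.86 ± 0.20 and 1.32 ± 0.19. Pyruvate dehydrogenase kinases, which hold pyruvate back from oxidation, moved in opposite directions: Pdk3 rose (2.40 ± 0.29) and Pdk2 fell (-1.24 ± 0.28), although its arrays overlapped in 1 or more media. Among 52 genes of fatty acid oxidation and peroxisomes, 3 rose (5.77%, against 10.7% of all genes) and 7 fell (13.5%, against 8.1%). Without the deprived control array 4 fell. Hadh and Eci1, enzymes of the mitochondrial cycle, fell from 876 to 1346 down to 414 to 659 (-1.10 ± 0.12) and from 1329 to 1500 down to 662 to 848 (-0.89 ± 0.11).

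In the Wnt, Notch and Hedgehog list 9 of 53 genes rose and 6 fell, and 3 fell without the deprived control array or without the first control array in serum. Axin2, a scaffold of the beta-catenin destruction complex and a common readout of Wnt signalling, went from 82.9 to 150 up to 229 to 514 (1.57 ± 0.15), and Ctnnbip1, which inhibits beta-catenin, from 366 to 448 up to 689 to 1175 (1.05 ± 0.13). The receptor Fzd2 (-1.08 ± 0.18), the Notch ligand Jag1 (-1.03 ± 0.15) and the Hedgehog transducer Smo (-0.80 ± 0.11) fell. In the TGF-beta and BMP list 10 of 56 genes fell (17.9%, against 8.1% of all genes). Among them were the ligands Tgfb3 and Tgfb2 (-1.32 ± 0.22), Bmp4 (-0.77 ± 0.12) and the mediator Smad3 (-0.80 ± 0.18). The receptor Tgfbr1 was the only one called higher (0.73 ± 0.19, called in 15 of 23 alternative settings). The count that fell was 5 without the deprived control array, the first serum E2F1 array or the first deprived E2F1 array. It was 6 without the first control array in serum, the first E2F1 array with LY294002 or the second deprived E2F1 array. The orphan receptor gene Nr4a3 rose from 206 to 340 up to 511 to 3891 (2.12 ± 0.36), and Bhlhe40, a repressor linked to the circadian clock, fell (-1.31 ± 0.25).

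Contractile, adhesion and matrix genes fell, each in a minority of the list: 22.6%, 18.9% and 12.5%, against 8.1% of all genes. Of 84 contractile and actin genes 19 fell and 7 rose. Their median was -0.09 in deprivation, above the -0.12 of all genes. It was -0.09 in serum and -0.25 with LY294002, below the 0.05 and -0.03 of all genes. Myl9, the regulatory light chain of smooth muscle myosin, spanned 1274 to 4300 on control arrays and 299 to 3321 on E2F1 arrays (-1.38 ± 0.27), and Cnn1, calponin, changed by -1.23 ± 0.28. Ezr, which tethers actin to the membrane, rose from 1137 to 2388 up to 3051 to 4616 (1.06 ± 0.14). Of 106 adhesion genes 20 fell and 2 rose, Itga3 (0.93 ± 0.25, called in 12 of 23 alternative settings) and Tspan7 (0.70 ± 0.18). The mesenchymal cadherin Cdh11 went from a median of 1229 down to 319 to 824 (-1.38 ± 0.21), and Cdh13 from 2796 to 5817 down to 1230 to 2696 (-1.20 ± 0.16). Of 80 matrix genes 10 fell and 0 rose, led by the collagen Col8a1 (-1.28 ± 0.19), with the fibrillin Fbn1 (-1.02 ± 0.23) and the perlecan gene Hspg2 (-0.83 ± 0.17) among them. Without the deprived control array 11 adhesion and 6 matrix genes were called lower. The matrix count was 16 without the second control array with LY294002 and 22 without both second arrays with LY294002.

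Lysosomal and vesicle genes also fell, by small amounts. Members called lower were 25.9% and 17.3% of these lists, against 8.1% of all genes. Of 81 genes of lysosomes and autophagy 21 fell and 1 rose, Atp6v1a (0.50 ± 0.12), with a median of -0.29. The acid ceramidase Asah1 went from 946 to 1360 down to 359 to 801 (-1.02 ± 0.19), the protease cathepsin H, Ctsh, changed by -1.01 ± 0.16 and cathepsin D, Ctsd, by -0.66 ± 0.15. Of 173 coat, SNARE and Rab genes 30 fell and 5 rose, with a median of -0.22. Stx7, the SNARE of late endosomes, went from 864 to 1622 down to 392 to 690 (-1.15 ± 0.12, adjusted p = 0.000415, limma), and the clathrin heavy chain Cltc changed by -0.45 ± 0.10. The 5 that rose were Rab3d (1.29 ± 0.30), Nsf (1.06 ± 0.20), Rab3ip (0.89 ± 0.19), Arf6 (0.49 ± 0.09) and Arf5 (0.46 ± 0.12). Leaving out the deprived control array gave 7 lysosomal and 15 vesicle genes called lower, and leaving out the first control array in serum gave 11 and 19. Lower calls over all probe sets also dropped without the deprived control array, from 1182 to 691. Without the second deprived E2F1 array 13 lysosomal genes were called, and 18 vesicle genes were called without the first of the serum E2F1 arrays.

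RNA quality was read from control probe sets at both ends of the same transcripts. The 3' minus 5' difference (log2) was 0.76 on the deprived control array against 0.51 and 0.56 on the deprived E2F1 arrays. It reached 0.90 on the second E2F1 array with LY294002 and was 0.12 to 0.33 on the other arrays. The array at 0.90 gave the upper end of several E2F1 ranges above. Its signals were 3891 for Nr4a3 (next highest 1502), 2074 for Gclm (1146), 4688 for Gclc (2437) and 2217 for Slc38a1 (1380). Each of these calls was kept in 23 of 23 alternative settings. With this difference as a covariate 2668 probe sets were called.

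**Figure D3:**
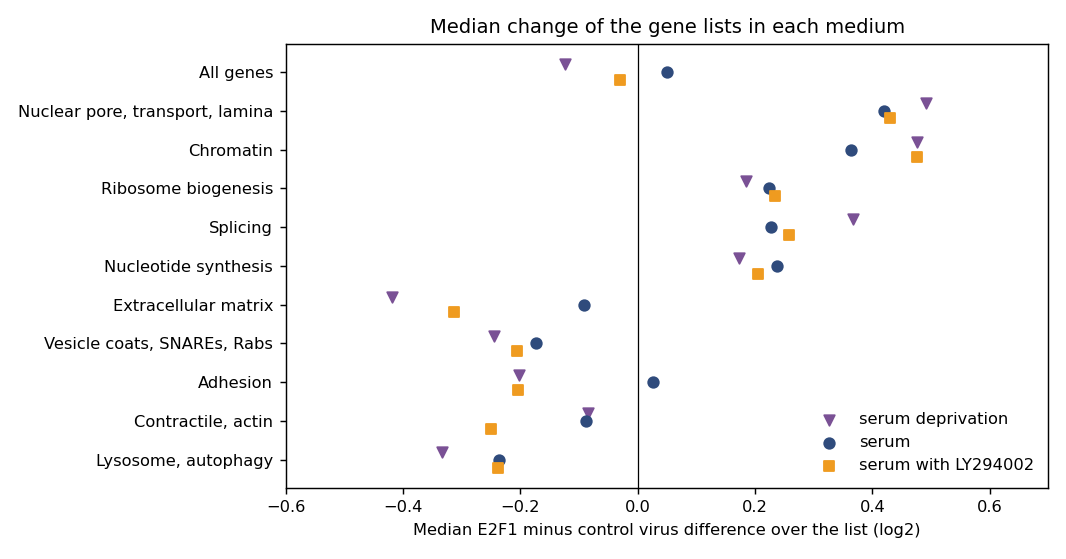
Median E2F1 minus control difference (log2, horizontal) over the measured genes of each list, in serum deprivation (triangles), serum (circles) and serum with LY294002 (squares), with all genes at the top. The nuclear lists lie to the right of all genes in every medium, and the adhesion median in serum (0.03) lies to the right of 0 but to the left of the median of all genes (0.05). The contractile median in deprivation (-0.09) lies to the right of that of all genes (-0.12).

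Whether the E2F1 effect differed between media was tested by the interaction of virus and medium. No probe set passed (0%, limma F test with Benjamini-Hochberg adjustment; smallest adjusted p = 0.117), 1266 had an unadjusted p under 0.05 where 793.3 would by chance, and without the first control array with LY294002 1 passed. A design of this size leaves differences between media largely undetermined, and the values of each medium are given as a description. The differences of each medium rest on separate arrays. Over the 9894 probe sets outside the cell cycle list with a mean signal of at least 100, they correlated across probe sets with r = 0.62 between deprivation and serum, 0.70 between deprivation and LY294002 and 0.70 between serum and LY294002. Probe sets are not independent replicates.

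Within the shared direction, sizes varied. For 12 of the 14 genes that rose most, the change was smallest in serum: Ggh differed by 3.54 in deprivation, 2.27 in serum and 3.47 with LY294002, and Cbx2 by 4.49, 1.86 and 2.70. Atad2 was more even, at 3.06, 2.76 and 3.21. Among the genes that fell, Tgfb3 differed by -0.38, -1.28 and -2.59 in the same order, and Smoc1 by -2.36, -1.42 and -1.29. The interaction was not called for any of these genes. Among the 14 genes that rose most, the second control array in serum was the highest control array for 9. The deprived control array was the lowest for 7 of the 14. Whether these control arrays account for the smaller change in serum was not tested.

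**Figure D4:**
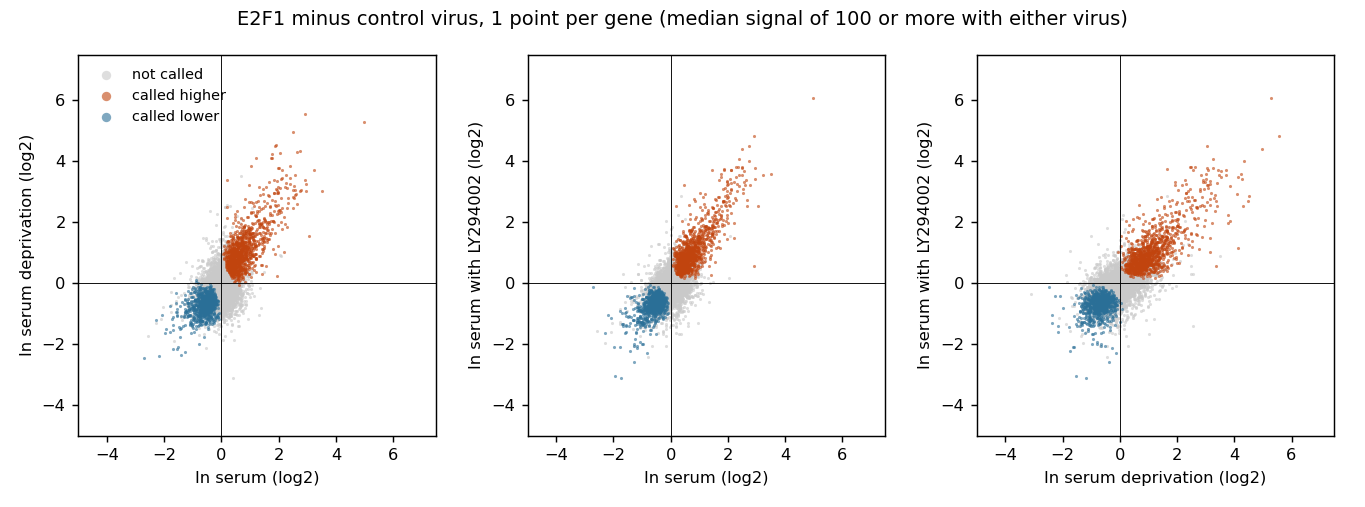
E2F1 minus control virus difference (log2) of each gene in one medium against another, for genes with a median signal of at least 100 with either virus, coloured by the call over all media (orange higher, blue lower, grey not called). Calls were made from the same arrays as the plotted differences, so that called genes lie mostly in the lower left or the upper right follows in part from the calling.

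Promoters were read from RefSeq (GRCr8), 250 bases before to 50 after the annotated start, and searched on both strands for the E2F type octamers TTTGGCGC, TTTCGCGC, TTTCCCGC and TTTGCCGC. A match was found in 2.14% of the 33469 promoters given there, and of the 9466 promoters of measured genes 3.42%. The share was 17.1% (22 of 129) for cell cycle genes that rose, 6.15% (57 of 927) for the other genes that rose, 2.98% (228 of 7640) for genes not called and 2.21% (17 of 770) for genes that fell. These promoters differ in base composition, with a mean GC content of 59.4% for genes not called and 61.0% for genes that fell, and the highest for other genes that rose. In promoters with 60 to 70% GC the shares for other genes that rose, genes not called and genes that fell were 7.65%, 4.01% and 2.52%. Below 50% GC they were 2.44% (2 of 82), 1.08% (14 of 1292) and 0% (0 of 79), with too few matches to compare. The hexamer TTTGAA of CHR elements, bound by the DREAM complex of late cell cycle genes, was found in 34.9% of promoters of cell cycle genes that rose but in 12.3% of those of other genes that rose, beside 12.0% of all measured genes. CCAAT, the core of NF-Y sites, was found in 55.8% and 38.3%, beside 37.1%. A match describes letters in this window and is not evidence of binding.

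**Figure D5:**
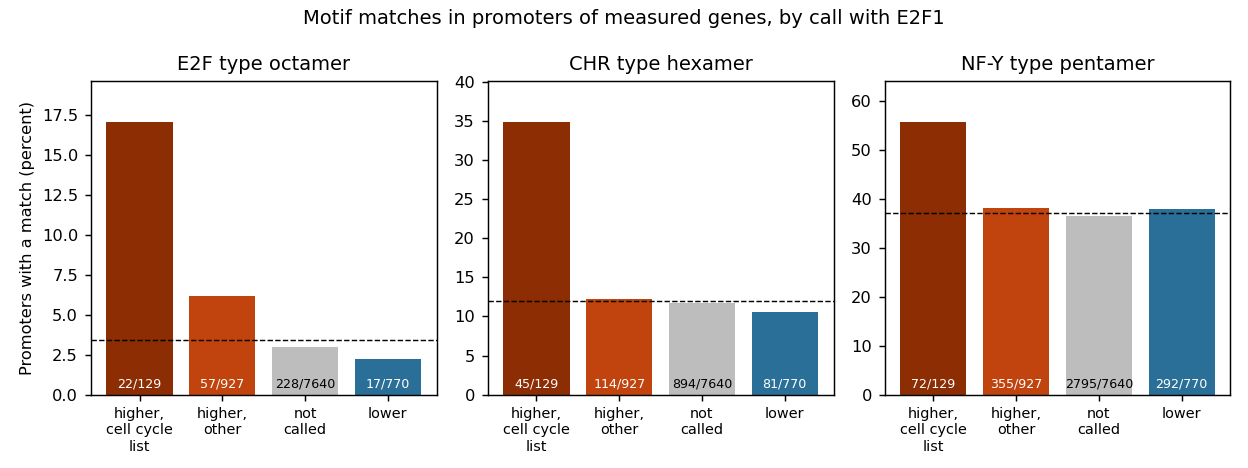
Percent of promoters with a match to the E2F type octamers, the CHR type hexamer and the NF-Y type pentamer (each panel has its own axis from 0), by call of the gene with E2F1; numbers in the bars are promoters with a match and in all, and the dashed line is the share over all measured genes. E2F type matches are found in 17.1% and 6.15% of promoters of genes that rose, inside and outside the cell cycle list.

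Of the 200 genes named by the rule, 167 had a promoter in the table and 6 of these (3.59% of genes) held an E2F type match, a share near the 3.42% of promoters of all measured genes. They are printed to show the matches in genes described here, and all 6 genes rose in every medium. They belong to the immunoproteasome (Psmb9), Polycomb (Phf19), a PCNA-binding factor (Pclaf), thymidylate synthesis (Tyms), the Kit ligand (Kitlg) and a replication fork protein of the clock family (Timeless). Each is given 5′ to 3′ on the strand of the gene with up to 40 bases on either side, cut 30 bases after the start, and the octamer is in capitals.
Psmb9: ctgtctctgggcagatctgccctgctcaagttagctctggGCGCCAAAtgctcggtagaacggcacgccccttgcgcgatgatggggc
Phf19: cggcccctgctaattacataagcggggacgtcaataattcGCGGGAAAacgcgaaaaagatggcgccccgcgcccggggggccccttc
Pclaf: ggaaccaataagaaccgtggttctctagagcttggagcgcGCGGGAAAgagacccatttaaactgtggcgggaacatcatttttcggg
Tyms: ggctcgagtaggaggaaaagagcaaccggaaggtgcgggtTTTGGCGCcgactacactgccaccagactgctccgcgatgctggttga
Kitlg: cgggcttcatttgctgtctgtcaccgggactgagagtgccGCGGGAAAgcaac
Timeless: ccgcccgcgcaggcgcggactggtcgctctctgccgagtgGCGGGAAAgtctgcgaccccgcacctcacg
In GRCr8 these stretches are chr20:4668891-4668978 (plus strand) for Psmb9, chr3:38594006-38594093 (minus) for Phf19, chr8:75315632-75315719 (plus) for Pclaf, chr9:120776073-120776160 (minus) for Tyms, chr7:36782637-36782689 (plus) for Kitlg and chr7:1239410-1239479 (plus) for Timeless. Counted from the start, the octamers begin at -69 in Psmb9, -199 in Phf19, -45 in Pclaf, -37 in Tyms, 18 in Kitlg and 1 in Timeless, so that the last pair lies in transcribed sequence. Pclaf went from 134 to 957 on control arrays up to 1412 to 2565 on E2F1 arrays (2.56 ± 0.38), Kitlg from 123 to 709 up to 504 to 1160 (1.41 ± 0.23), and Timeless changed by 0.73 ± 0.21, a call kept in 10 of 23 alternative settings.

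The cells were checked against markers. Of 13 fibroblast markers 8 had a median signal above that of the arrays, 2 fell (Pdgfrb and Sparc, the latter by -0.75 ± 0.14) and 0 rose. All 13 lay below 0 over all media (median -0.23), Vim at only -0.001. By medium the median was -0.67 in deprivation, with its single control array, 0.005 in serum and -0.24 with LY294002. The summed signal of the 13 was 93058 to 125235 on control arrays and 79552 to 103606 on E2F1 arrays. Of 26 markers of endothelial, blood, epithelial, muscle, nerve and fat cells 2 had a median signal above that of the arrays, and 1 was called, the endothelial receptor gene Kdr. Other endothelial markers did not pass the limma test: Vwf (0.74 ± 0.25, adjusted p = 0.072), Tie1 (0.55 ± 0.18, adjusted p = 0.0572) and Pecam1 (-0.35 ± 0.24, adjusted p = 0.374). With array weights 3 of the 26 were called higher. The summed signal of the 26 was 1705 to 2392 on control and 1598 to 2027 on E2F1 arrays.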

How the data were processed

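The 11 arrays are Affymetrix RAE230A arrays, for which 6 µg of total RNA was used per the labels. The deposited values are linear signal intensities of whole probe sets. MAS5 and RMA are both named in the submitters' processing notes, and which made these values is not given. The trimmed mean was 500 on every array and median log2 values spanned 0.25, so no scaling was added. Of 15923 probe sets 57 controls were left out. Gene symbols came from the platform annotation: 12783 probe sets had 1 symbol, 312 several and 2771 none, and 12748 of the 12783 were found in the RefSeq gene table by ID.

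An additive model of medium and virus was fitted to log2(signal + 16) with limma 3.58.1 (lmFit, eBayes) in R 4.3.3, with 7 residual degrees of freedom; the interaction fit had 5. The lone deprived control array borrows its spread from the groups with replicates. Folds are on this scale and are given only where every array exceeds 2 times the offset. The fit was tested on simulated data.

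The comparison and the gene lists were chosen with earlier results of these data known. Families were taken whole by symbol prefix, and symbols that share a prefix but belong to another family were removed after the lists had been applied. Each gene was represented by its brightest probe set, except that the genes with the largest changes were taken by the brightest of their called probe sets. Genes were named by rule: up to 14 in each direction with the largest change among called probe sets outside the cell cycle list, on the same side of the controls in every medium, with a signal of at least 100 on every array of the higher virus; up to 3 called genes per list and direction; and the members of counts of 5 or fewer. Further list members named beside these were picked after their values were seen. Of the 200 named probe sets 8 had another probe set of the same gene with the other sign, of which 0 were called. Figures were drawn with matplotlib 3.10.9.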

Additional observations from a re-analysis of the deposited data

Results flagged for a closer look

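Kdr, an endothelial receptor gene, was called higher with E2F1 (log2 change 0.73 ± 0.21, adjusted p = 0.037, limma) although the media moved in opposite directions: both E2F1 arrays lay below the control array in deprivation (-0.22), and all lay above the controls in serum (1.11) and with LY294002 (0.98). The difference between media did not pass the interaction test (adjusted p = 0.452). Its signals were 5.19 to 17.8 on control arrays and 9.88 to 42.7 on E2F1 arrays, around the offset of 16, and its call was kept in 11 of the 22 alternative settings that tested it.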

How the results depend on the processing

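Under 23 alternative settings none of the 2624 called probe sets changed sign where tested, and 26 of the 28 genes with the largest changes stayed called throughout; Pck2 and Ackr3 were called in 22. Leaving out single arrays gave 1686 to 2405 calls in all, 995 to 1356 higher and 691 to 1137 lower, with 982 to 1304 higher and 682 to 1090 lower on the same side in every medium (1664 to 2306 together) and 0 to 1 interaction call. The lowest counts came without the deprived control array, which leaves 2 media. Members called ranged from 19 to 33 for splicing, 22 to 27 for nuclear transport, 22 to 30 for chromatin, 6 to 16 for matrix, 7 to 21 for lysosome, 15 to 30 for vesicle, 13 to 18 for contractile and 11 to 20 for adhesion genes. Without all deprived arrays, and so fewer samples, 1220 probe sets were called, 767 higher and 453 lower, of which 765 and 453 lay on the same side (1218 together). Splicing then had 15 called higher, nuclear transport 19, and vesicle, lysosome, matrix, contractile and adhesion genes had 7, 3, 6, 9 and 5 called lower. The matrix count was 16 with trend and robust settings, 19 without the dimmest 30% of probe sets and 22 without both second LY294002 arrays; the cause was not tested. The chromatin median was 0.37 with all probe sets of a gene averaged. Replicate numbers were not taken to pair arrays, since replicate differences correlated by 0.04 in serum and 0.30 with LY294002 between the viruses; the replicate block gave 2534 calls. The share of calls that were higher was 55.0%, against 49.1% with median centring and 50.6% with quantile normalization. Chosen after seeing the data, bands of promoter GC moved the E2F type shares below 50% GC to 2.44% (2 of 82, other genes that rose) and 0% (0 of 79, genes that fell).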
